A study of Homo sapiens with 16 samples.

Results

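The human genes described here encode the writers of N6-methyladenosine (m6A) in messenger RNA together with the nuclear m6A reader YTHDC1 and the eraser ALKBH5. There were 10 of them among the 60252 genes of the count table: RBM15, RBM15B, METTL3, METTL14, WTAP, VIRMA, ZC3H13, CBLL1, YTHDC1 and ALKBH5. Each symbol matched 1 Ensembl gene, and all 10 were among the 23830 genes that passed the filter on low counts. RBM15 was selected on its measured counts, for a level that was high with AT7519, so its values are a description and carry no test. The other 9 genes were chosen for what their proteins do, and they were tested.

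RNA was sequenced from LNCaP, a human prostate cancer cell line, in 16 libraries, with 2 replicates in each of 8 groups. The groups crossed an arm with an agent. The agent was AT7519, an inhibitor of cyclin-dependent kinases given at 0.5 μM for 4 hours before harvest, or its vehicle DMSO for 4 hours. The arms were siOGT1 and siOGT2, in which the O-GlcNAc transferase OGT was knocked down for 48 hours, OSMI2, an inhibitor of OGT, and Scr, the scrambled siRNA. For OSMI2 the sources used here state neither the dose nor the duration, nor whether scrambled siRNA went with it. All groups share 1 cell line, and nothing in the labels says that the 2 replicates of a group came from separate cultures. The p-values therefore measure the spread between these libraries, which may be technical.

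m6A is the commonest internal mark of messenger RNA. It is laid down in the nucleus by METTL3, the catalytic subunit, paired with METTL14, while WTAP, VIRMA, ZC3H13, CBLL1 and the RNA-binding adaptors RBM15 and RBM15B hold, place and recruit the complex. YTHDC1 binds the mark in the nucleus and acts in splicing and export, and ALKBH5 and FTO remove it.

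The libraries held between 40216911 counts (OSMI2 with AT7519, replicate 2) and 147019364 counts (siOGT1 with DMSO, replicate 1). The 10 genes had between 714 and 20011 counts per library. OGT RNA averaged 10.99 CPM (counts scaled to the size of the library) with AT7519 and 17.7 with DMSO in siOGT1, 31.5 and 32.9 in siOGT2, 415 and 343 in OSMI2, and 285 and 269 in Scr, so the siRNA arms carried the labelled knockdown. All 9 luminal prostate markers were present, with KLK3, the gene of prostate-specific antigen, at 727 to 1658 CPM. The basal markers KRT5 and TP63 reached at most 0.0624 and 0.0526 CPM. KRT14, also a basal marker, was detected in every library, at 0.173 to 1.0002 CPM. Of the markers of other cell types, COL1A1 lay at 10.8 to 40.8 CPM, VWF at 8.41 to 16.9 CPM and SYP at 2.56 to 7.08 CPM, while COL1A2, DCN and PTPRC reached at most 0.0742 CPM. In bulk RNA, fewer cells that express a gene and less RNA per cell cannot be told apart. CPM is relative to the RNA of the library, and no spike-in is named in the sources used here.

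Under DMSO the 10 RNAs spanned a wide range once divided by exonic length, in CPM per kilobase. ALKBH5 was highest, with a lowest value of 24.4, a median of 27.8 and a highest value of 32.2 CPM per kilobase over 8 libraries. RBM15B (median 19.5), YTHDC1 (18.3) and WTAP (18.1) came next and overlapped each other. METTL3 (10.1), ZC3H13 (8.83), VIRMA (8.29) and CBLL1 (8.22) followed, and among these each overlapped its neighbour, and METTL14 at a median of 6.34 CPM per kilobase overlapped CBLL1. RBM15 was lowest, at 3.69 to 4.60 with a median of 4.24 CPM per kilobase, and stood apart from METTL14.

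With AT7519 the order differed. ALKBH5 still had the highest median, 32.9 CPM per kilobase, but RBM15 had a median of 17.2 CPM per kilobase, beside 17.1 for YTHDC1 and 16.04 for RBM15B. METTL14 and ZC3H13 took the lowest places, METTL14 at 2.23 to 3.48 and ZC3H13 at 3.65 to 4.60 CPM per kilobase. The plot of levels by library shows these 2 genes and RBM15 as the members whose agents lie farthest apart.

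**Figure D1:**
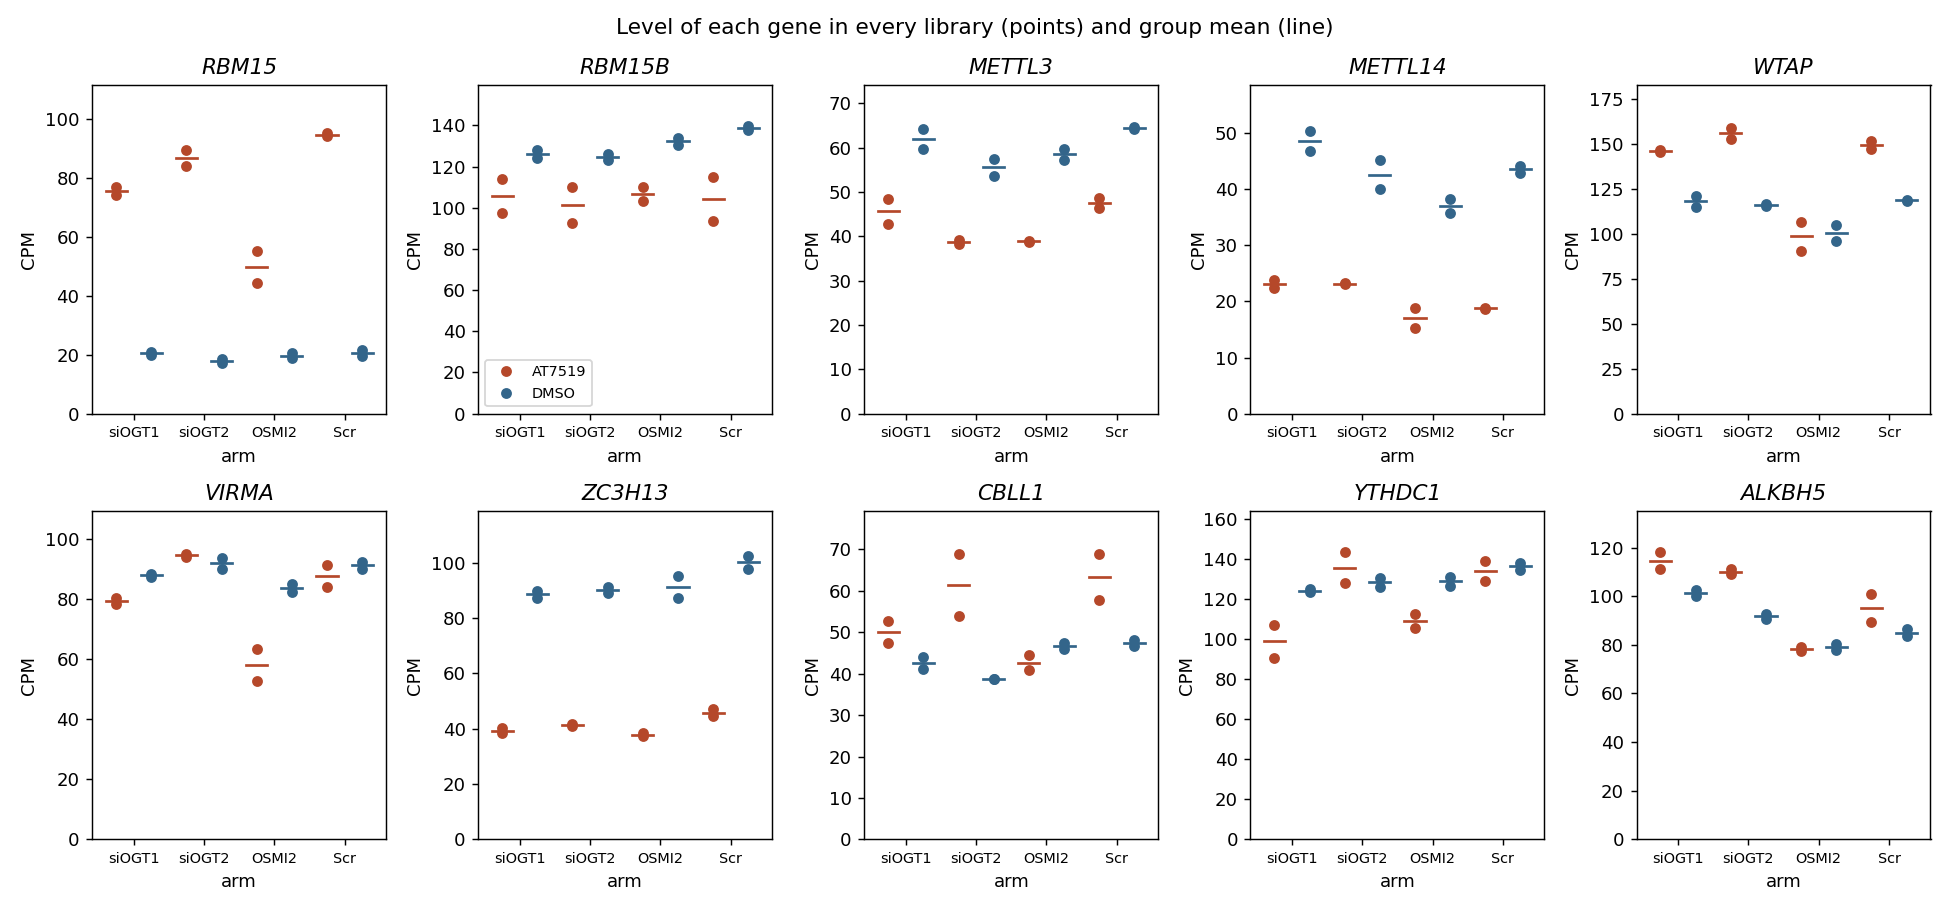
Level of each of the 10 genes in CPM (vertical axis, from 0, with its own scale for each gene) in every library, by arm; red points are AT7519 libraries, blue points DMSO libraries and lines the mean of 2. RBM15 lies above its DMSO level in all 8 AT7519 libraries, METTL14, ZC3H13, METTL3 and RBM15B lie below it, and VIRMA with AT7519 is lowest in OSMI2.

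For AT7519 against DMSO, called means an adjusted p below 0.05 in edgeR's quasi-likelihood test with Benjamini-Hochberg adjustment over all 23830 genes. METTL3, METTL14, ZC3H13 and RBM15B fell in all 4 arms. WTAP rose in siOGT1, siOGT2 and Scr, and CBLL1 in siOGT2 and Scr. Among the 9 tested genes, 1 was called higher in siOGT1, 3 in siOGT2, 0 in OSMI2 and 2 in Scr. Over all genes the called-higher share was 19.4% in siOGT1, 22.2% in siOGT2, 23.6% in OSMI2 and 21.8% in Scr. The called-lower count was 5 of 9 in siOGT1, 4 in siOGT2, 6 in OSMI2 and 4 in Scr, beside 22.0%, 22.8%, 23.6% and 24.6% of all genes in that order of arms. Among the better expressed genes (mean log2 CPM at or above 3), to which all 10 belong, 28.3%, 27.9%, 32.2% and 31.4% of 10028 genes were called lower. The median log2 fold change of the 9 was -0.26 in siOGT1, 0.04 in siOGT2, -0.31 in OSMI2 and -0.06 in Scr. Over all genes tested it was -0.05, -0.03, 0.02 and -0.05, and over the better expressed genes 0.05, 0.07, 0.05 and 0.04.

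**Figure D2:**
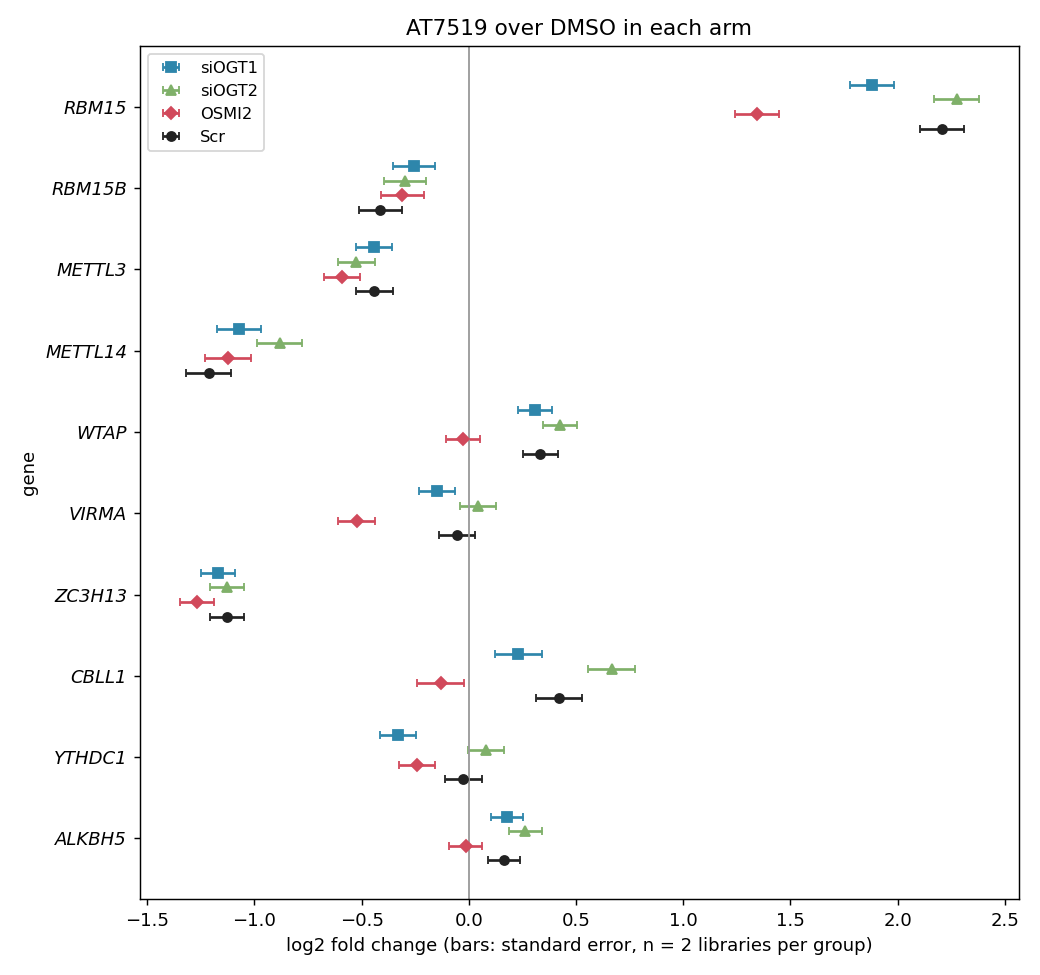
Fitted log2 fold change of AT7519 over DMSO (horizontal axis) for each gene (rows), with 1 marker per arm and bars of 1 standard error, from 2 libraries per group. METTL14, ZC3H13 and METTL3 lie left of 0 in every arm, RBM15 lies between 1.34 and 2.27, and the OSMI2 values of WTAP, VIRMA and CBLL1 lie left of the Scr values.

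RBM15 and RBM15B are paralogous RNA-binding adaptors that bring the methyltransferase complex to its RNAs. RBM15 (ENSG00000162775, chromosome 1) has up to 3 exons, a span of 8176 bases and 4670 exonic bases. RBM15B (ENSG00000259956, chromosome 3) is a single-exon gene of 6641 bases. Their 2 promoter windows are shown because the 2 RNAs changed in opposite directions with AT7519. Each window runs from 250 bases before to 50 bases after the gene start in RefSeq's GRCh38.p14 table, 5′ to 3′ on the gene's strand, at chr1:110339127-110339426 (plus strand) for RBM15 and chr3:51391035-51391334 (plus strand) for RBM15B. Capitals mark matches, on either strand, to 8 motifs. These were the TATA box read as TATAAA, the CCAAT box as CCAAT, the GC box as GGGCGG, the ETS core as CCGGAAG, the E-box as CACGTG, the cyclic AMP response element as TGACGTCA, the NRF1 motif as GCGCATGCG and the YY1 motif as AAGATGGCG, where adjoining matches can merge.
RBM15: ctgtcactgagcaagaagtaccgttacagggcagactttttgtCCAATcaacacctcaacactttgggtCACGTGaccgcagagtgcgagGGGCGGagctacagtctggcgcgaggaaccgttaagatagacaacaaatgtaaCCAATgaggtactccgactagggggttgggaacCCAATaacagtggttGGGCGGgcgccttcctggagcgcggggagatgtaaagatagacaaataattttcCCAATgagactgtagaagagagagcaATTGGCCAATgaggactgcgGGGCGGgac
RBM15B: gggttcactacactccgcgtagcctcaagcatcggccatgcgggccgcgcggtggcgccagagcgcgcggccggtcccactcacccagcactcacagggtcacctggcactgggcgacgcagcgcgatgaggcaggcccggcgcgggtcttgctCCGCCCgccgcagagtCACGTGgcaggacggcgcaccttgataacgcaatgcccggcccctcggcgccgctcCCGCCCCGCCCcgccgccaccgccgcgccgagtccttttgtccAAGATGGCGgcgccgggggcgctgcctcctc
The RBM15 window was 52.7% G or C and held 6 CCAAT boxes, 3 GC boxes and 1 E-box. A CCAAT box occurred in 34.6% of 35116 promoters of the same length, and 6 or more in 43 of them (0.122%), the median being 0. The RBM15B window was 74.3% G or C, beside a median of 58.7% over all promoters, and held no CCAAT box, 3 GC boxes, 1 E-box and 1 YY1 match. GC boxes occurred in 45% of all promoters, E-boxes in 7.26% and YY1 matches in 1.75%. A match describes letters and is not shown to be a bound site.

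RBM15 had 74.4 and 76.8 CPM with AT7519 against 21.0 and 20.0 CPM with DMSO in siOGT1, and 84.2 and 89.6 against 18.7 and 17.2 CPM in siOGT2. It had 55.4 and 44.2 CPM against 18.8 and 20.5 CPM in OSMI2, and 94.1 and 95.3 against 21.5 and 19.5 CPM in Scr. All 8 AT7519 libraries were above all 8 DMSO libraries. Within AT7519 the 2 OSMI2 libraries were lowest, the siOGT arms lay between, and the Scr libraries were highest, with no overlap between arms. The fitted log2 fold change was 1.88 in siOGT1 (3.68-fold), 2.27 in siOGT2 (4.84-fold), 1.34 in OSMI2 (2.54-fold) and 2.21 in Scr (4.61-fold), with standard errors of 0.10 to 0.11. Leaving out 1 library at a time gave 1.85 to 1.92, 2.22 to 2.33, 1.12 to 1.47 and 2.14 to 2.28 in that order of arms. RBM15 shares 175 exonic bases (3.75%) with RBM15-AS1 on the opposite strand, whose group means were 1.07 to 1.54 CPM and which passed the test in none of the 4 arms.

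RBM15B moved little and the other way. It had 114 and 97.2 CPM with AT7519 against 124 and 128 CPM with DMSO in siOGT1, and 110.0 and 92.6 against 123 and 126 CPM in siOGT2. It had 109.9 and 103 against 134 and 130.4 CPM in OSMI2, and 115 and 93.5 against 139.5 and 138 CPM in Scr. All AT7519 libraries were below all DMSO libraries, and in each arm the 2 AT7519 replicates were farther apart than the 2 DMSO replicates. The log2 fold change was -0.26 in siOGT1 (SE 0.10, adjusted p = 0.0444, edgeR), -0.30 in siOGT2 (SE 0.10, adjusted p = 0.0196), -0.31 in OSMI2 (SE 0.10, adjusted p = 0.0142) and -0.41 in Scr (SE 0.10, adjusted p = 0.00185).

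Several of these RBM15B calls lay close to the threshold. In siOGT1 the call was lost in 11 of 16 single-library removals (log2 fold change of -0.28 to -0.12, adjusted p of 0.0542 to 0.458), most of which took out a library of another arm. The smallest change came without siOGT1 AT7519 replicate 2 (-0.12). In siOGT2 it was lost without AT7519 replicate 2 (-0.18, adjusted p = 0.219), DMSO replicate 1 (-0.32, 0.0570) or DMSO replicate 2 (-0.28, 0.0902). In OSMI2 it was lost without AT7519 replicate 2 (-0.29, 0.0758) or DMSO replicate 1 (-0.29, 0.0757), and in Scr without AT7519 replicate 2 (-0.26, 0.0759). Upper-quartile scaling gave -0.12, -0.19 and -0.14 in siOGT1, siOGT2 and OSMI2, none of them called. RBM15B shares 1325 of its exonic bases (20%) with DCAF1 on the opposite strand, and which strand was counted is not stated. DCAF1 averaged 40.9 CPM with AT7519 against 61.6 CPM with DMSO in siOGT1, 39.0 against 59.9 in siOGT2, 28.4 against 54.0 in OSMI2 and 38.7 against 66.7 in Scr, and was called lower in all 4 arms. Its part in the RBM15B values was not tested.

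The balance of the paralogues, per kilobase, followed from these levels. RBM15 made up 37.9% to 59.2% of the summed RBM15 and RBM15B level (median 52.5%) in the 8 AT7519 libraries, against 16.3% to 19.4% (median 17.9%) in the 8 DMSO libraries. The sum itself was 25.0 to 37.5 CPM per kilobase with AT7519 and 22.5 to 25.6 with DMSO. The lowest RBM15 shares with AT7519 were the 41.7% and 37.9% of OSMI2.

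**Figure D3:**
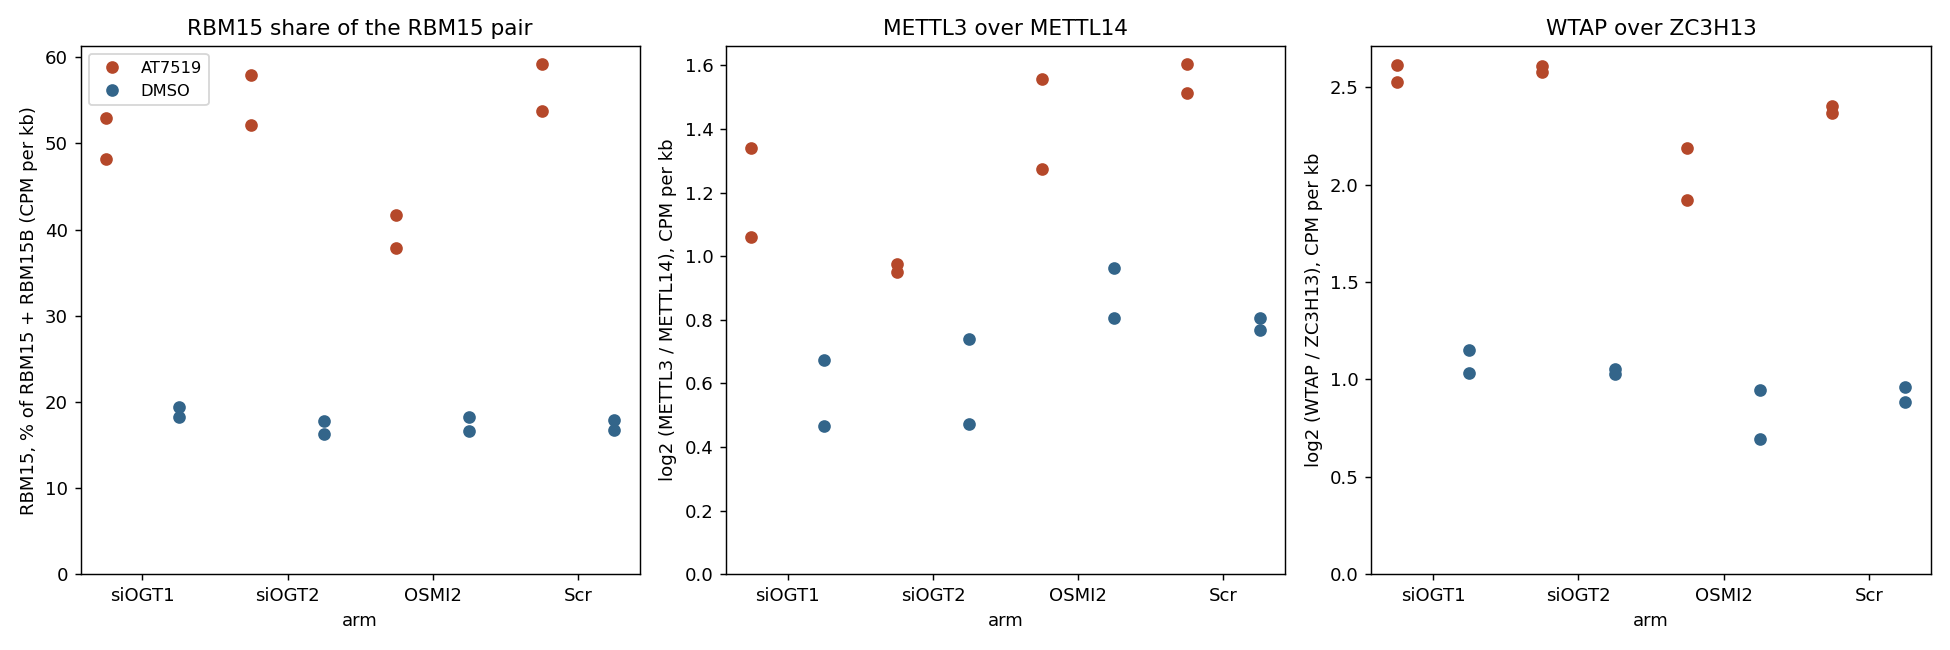
Ratios within each library, from CPM per kilobase, by arm: the percentage that RBM15 makes of RBM15 plus RBM15B, the log2 ratio of METTL3 over METTL14, and that of WTAP over ZC3H13; red points are AT7519 and blue points DMSO libraries. The agents do not overlap for the first (37.9% to 59.2% against 16.3% to 19.4%) or the last (1.92 to 2.62 against 0.69 to 1.15), but do for METTL3 over METTL14 when the arms are pooled.

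METTL3, the catalytic subunit, and METTL14, its RNA-binding partner, both fell with AT7519 in every arm, METTL14 by more. METTL3 (ENSG00000165819, chromosome 14) had 48.5 and 42.7 CPM with AT7519 against 64.1 and 59.7 CPM with DMSO in siOGT1, and 39.1 and 38.2 against 57.4 and 53.7 CPM in siOGT2. It had 38.7 and 39.0 against 59.8 and 57.3 CPM in OSMI2, and 46.3 and 48.7 against 64.6 and 64.3 CPM in Scr. The 8 AT7519 libraries lay below the 8 DMSO libraries. The log2 fold changes were -0.44 (SE 0.08, adjusted p = 0.000275, edgeR), -0.52 (SE 0.09, adjusted p = 4.64e-05), -0.59 (SE 0.09, adjusted p = 9.53e-06) and -0.44 (SE 0.08, adjusted p = 0.000240) in siOGT1, siOGT2, OSMI2 and Scr, which is 1.36 to 1.51 times lower. METTL3 shares 388 exonic bases (6.58%) with TOX4 on the opposite strand, whose log2 fold changes were -0.47, -0.27, -0.37 and -0.39 in the same order, all called. The part of TOX4 in the METTL3 counts was not tested.

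METTL14 (ENSG00000145388, chromosome 4) had 22.3 and 23.9 CPM with AT7519 against 46.8 and 50.3 CPM with DMSO in siOGT1, and 23.2 and 23.0 against 40.0 and 45.1 CPM in siOGT2. It had 15.3 and 18.8 against 35.7 and 38.1 CPM in OSMI2, and 18.9 and 18.6 against 44.2 and 42.8 CPM in Scr. Every AT7519 library was well below every DMSO library. METTL14 was 2.10 times lower in siOGT1 (log2 fold change -1.07, SE 0.10, adjusted p = 1.05e-07, edgeR), 1.84 times in siOGT2 (-0.88, SE 0.10, 1.08e-06), 2.18 times in OSMI2 (-1.12, SE 0.11, 4.17e-08) and 2.32 times in Scr (-1.21, SE 0.10, 1.62e-08). The log2 ratio of METTL3 over METTL14 per kilobase was 0.95 to 1.60 (median 1.31) with AT7519 and 0.47 to 0.96 (median 0.75) with DMSO. Within each arm both AT7519 values were above both DMSO values, and the ranges met only when the arms were pooled.

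ZC3H13 keeps the complex in the nucleus and bridges WTAP to the adaptors. ZC3H13 (ENSG00000123200, chromosome 13) spans 98295 bases, the longest of the 10 genes. It had 40.4 and 38.3 CPM with AT7519 against 89.9 and 87.2 CPM with DMSO in siOGT1, and 41.8 and 40.9 against 91.4 and 89.1 CPM in siOGT2. It had 37.5 and 38.3 against 87.3 and 95.2 CPM in OSMI2, and 47.2 and 44.5 against 102 and 97.9 CPM in Scr. The agents were far apart in all arms and the replicates close together. It was 2.25 times lower in siOGT1 (log2 fold change -1.17, SE 0.08, adjusted p = 1.08e-09, edgeR), 2.18 times in siOGT2 (-1.13, SE 0.08, 1.76e-09), 2.41 times in OSMI2 (-1.27, SE 0.08, 1.97e-10) and 2.18 times in Scr (-1.13, SE 0.08, 1.09e-09).

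METTL14 and ZC3H13 fell together in all 4 arms. Their promoter windows, shown for that reason in the format used for RBM15, are at chr4:118685142-118685441 (plus strand) and chr13:46052697-46052996 (minus strand) of GRCh38.p14, from RefSeq.
METTL14: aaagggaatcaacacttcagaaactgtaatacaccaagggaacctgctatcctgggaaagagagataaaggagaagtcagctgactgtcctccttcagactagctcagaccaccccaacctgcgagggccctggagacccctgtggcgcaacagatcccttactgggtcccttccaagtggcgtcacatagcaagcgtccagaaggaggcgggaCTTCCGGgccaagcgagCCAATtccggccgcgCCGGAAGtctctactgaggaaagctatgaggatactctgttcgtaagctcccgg
ZC3H13: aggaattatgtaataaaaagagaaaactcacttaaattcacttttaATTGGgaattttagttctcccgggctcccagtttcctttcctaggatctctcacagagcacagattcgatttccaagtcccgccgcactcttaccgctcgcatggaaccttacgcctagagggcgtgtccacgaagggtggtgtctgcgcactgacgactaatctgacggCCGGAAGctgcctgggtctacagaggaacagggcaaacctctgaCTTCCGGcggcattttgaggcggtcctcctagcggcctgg
Each held 1 CCAAT box and 2 ETS cores and none of the other 6 motifs, and the METTL14 window was 55.7% and the ZC3H13 window 52% G or C. At least 1 ETS core occurred in 10.3% of all promoters, and the share with 2 was not counted. METTL3, which also fell in all 4 arms, held 1 CCAAT box and 1 ETS core. CBLL1, which rose in siOGT2 and Scr, held 1 of each too, and RBM15B, which fell in all 4 arms, held neither. A link between these motifs and the falls was not tested.

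Calls of METTL3, METTL14 and ZC3H13 held in all 4 arms under each of the 25 alternative settings, which included every removal of 1 library. Relative to the median of all genes in Scr, METTL14 was at -1.16, ZC3H13 at -1.08 and METTL3 at -0.39 on the log2 scale. RBM15 stood at 2.26 on the same scale.

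WTAP anchors the complex in nuclear speckles. WTAP (ENSG00000146457, chromosome 6) had 146 and 147 CPM with AT7519 against 115 and 121 CPM with DMSO in siOGT1, and 159 and 153 against 117 and 116 CPM in siOGT2. It had 107 and 90.8 against 105 and 96.3 CPM in OSMI2, and 152 and 147 against 118 and 119 CPM in Scr. The agents did not overlap in siOGT1, siOGT2 or Scr and did overlap in OSMI2. WTAP rose by 0.31 in siOGT1 (log2, SE 0.08, adjusted p = 0.00401, edgeR), by 0.43 in siOGT2 (SE 0.08, 0.000213) and by 0.33 in Scr (SE 0.08, 0.00185), and its value in OSMI2 was -0.03 (SE 0.08, 0.810). The size of these rises rests on the scaling: with library size alone they were 0.08, 0.16 and 0.09 and not called, and the median of all genes then lay at -0.27, -0.30 and -0.30. Relative to the median of all genes in the same setting, the Scr value was 0.38 under trimmed-mean, upper-quartile and library-size scaling alike. A change of scaling shifts all genes of a comparison nearly alike, so this agreement does not test the rise. In OSMI2 it was called lower with library size alone (-0.28, adjusted p = 0.00646). In siOGT1 the call was also lost without DMSO replicate 1 (0.27, adjusted p = 0.0526). An opposite-strand neighbour shares 298 exonic bases (4.64%) with WTAP and was called higher in all 4 arms, with log2 fold changes of 0.31 in siOGT1, 0.39 in siOGT2, 0.48 in OSMI2 and 0.32 in Scr. Its part in the WTAP counts was not tested. The log2 ratio of WTAP over ZC3H13 per kilobase was 1.92 to 2.62 (median 2.46) with AT7519 and 0.69 to 1.15 (median 0.995) with DMSO.

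VIRMA is the large scaffold of the complex. VIRMA (ENSG00000164944, chromosome 8) had 63.5 and 52.9 CPM with AT7519 against 82.5 and 85.0 CPM with DMSO in OSMI2, and 80.5 and 78.4 against 88.6 and 87.5 CPM in siOGT1. It had 95.3 and 94.3 against 90.2 and 93.7 CPM in siOGT2, and 91.4 and 84.2 against 90.1 and 92.5 CPM in Scr. The OSMI2 libraries with AT7519 were the lowest of all 16. VIRMA fell in OSMI2 (log2 fold change -0.52, SE 0.08, adjusted p = 3.49e-05, edgeR, held in all 25 alternatives), and its values in siOGT1 (-0.15, adjusted p = 0.170), siOGT2 (0.04, 0.709) and Scr (-0.06, 0.620) did not pass. With library size alone it was also called lower in the other arms, at -0.37 in siOGT1, -0.22 in siOGT2, where the sign turned, and -0.30 in Scr. In siOGT1 it was called lower too where only the better expressed genes were tested (-0.21, adjusted p = 0.0246).

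CBLL1, also called HAKAI, is a ubiquitin ligase of the complex. CBLL1 (ENSG00000105879, chromosome 7) had 47.4 and 52.7 CPM with AT7519 against 41.2 and 44.1 CPM with DMSO in siOGT1, and 53.9 and 68.8 against 38.7 and 38.6 CPM in siOGT2. It had 44.5 and 40.8 against 47.5 and 46.0 CPM in OSMI2, and 57.7 and 69.01 against 46.6 and 48.1 CPM in Scr. AT7519 libraries were higher in siOGT1, siOGT2 and Scr and lower in OSMI2, and the AT7519 replicates differed most in siOGT2 and Scr. CBLL1 rose in siOGT2 (log2 fold change 0.67, SE 0.11, adjusted p = 5.04e-05, edgeR, held in all 25 alternatives) and Scr (0.42, SE 0.11, 0.00330). The Scr call was lost without AT7519 replicate 2 (0.29, 0.0753) and with library size alone (0.18, 0.256). The siOGT1 value was 0.23 (0.0980; 0.36 and called with upper-quartile scaling, adjusted p = 0.0163), and the OSMI2 value was -0.13 (0.351; -0.38 and called with library size alone, 0.0192). CBLL1 shares 333 exonic bases (6.08%) with CBLL1-AS1, whose group means were 1.32 to 2.86 CPM.

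YTHDC1, the nuclear reader, had 90.6 and 107 CPM with AT7519 against 125 and 124 CPM with DMSO in siOGT1, and 128 and 143 against 126 and 131 CPM in siOGT2. YTHDC1 (ENSG00000083896, chromosome 4) had 112 and 105 against 131 and 127 CPM in OSMI2, and 129 and 139 against 138 and 135 CPM in Scr. The agents were apart in siOGT1 and OSMI2 and overlapped in siOGT2 and Scr. YTHDC1 fell in siOGT1 (log2 fold change -0.33, SE 0.08, adjusted p = 0.00365, edgeR) and OSMI2 (-0.24, SE 0.08, 0.0240), and its values were 0.08 in siOGT2 (0.472) and -0.03 in Scr (0.835). The siOGT1 call was lost without AT7519 replicate 1 (-0.21, 0.106) and with upper-quartile scaling (-0.20, 0.0832). The OSMI2 call was lost without AT7519 replicate 2 (-0.22, 0.104), DMSO replicate 1 (-0.22, 0.117) or DMSO replicate 2 (-0.27, 0.0571), and with upper-quartile scaling (-0.07, 0.550). With library size alone YTHDC1 was called lower in Scr too (-0.27, 0.0242).

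ALKBH5, which removes the mark, had 118 and 111 CPM with AT7519 against 100.1 and 103 CPM with DMSO in siOGT1, and 111 and 109 against 90.8 and 92.6 CPM in siOGT2. ALKBH5 (ENSG00000091542, chromosome 17) had 79.2 and 77.3 against 80.2 and 78.0 CPM in OSMI2, and 101 and 89.5 against 83.6 and 86.5 CPM in Scr. Its AT7519 libraries were higher in siOGT1, siOGT2 and Scr, while the OSMI2 libraries were alike under both agents. ALKBH5 rose in siOGT2 (log2 fold change 0.26, SE 0.08, adjusted p = 0.00820, edgeR). That call was lost without DMSO replicate 1 (0.25, 0.0570), and with library size alone the value turned to -0.00303 (0.975). The values in siOGT1 (0.18, 0.0692) and Scr (0.16, 0.0870) did not pass, but were called at 0.31 in both arms with upper-quartile scaling (0.00109 and 0.000859), and the OSMI2 value was -0.01 (0.894). ALKBH5 shares 357 exonic bases (11.2%) with an unnamed antisense gene.

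Without the kinase inhibitor, 1 of the tested RNAs passed the test in any arm against Scr. Under DMSO, 1 of 9 tested genes was called in siOGT1 against Scr, where 10.4% of all genes were. None of the 9 was called in siOGT2, where 4.30% of all genes were, or in OSMI2, where 2.98% were. The called gene was ALKBH5, with 100.1 and 103 CPM in siOGT1 against 83.6 and 86.5 CPM in Scr (log2 fold change 0.25, SE 0.08, adjusted p = 0.0384, edgeR). It lost the call in 8 of 16 single-library removals (adjusted p of 0.0506 to 0.237). The farthest values that did not pass were -0.29 for CBLL1 in siOGT2 (adjusted p = 0.152), and -0.24 for both WTAP (0.127) and METTL14 (0.260) in OSMI2. With replicate number added to the fit within each agent, CBLL1 in siOGT2 (-0.29, 0.0245) and WTAP in OSMI2 (-0.24, 0.0234) were called. The RBM15 values were 0.00 in siOGT1, -0.19 in siOGT2 and -0.06 in OSMI2. The median over the 9 genes was -0.06, -0.09 and -0.12, beside -0.01, -0.02 and -0.01 over all genes. Over the better expressed genes it was -0.02, -0.04 and -0.07.

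Under AT7519, the most calls among the 9 genes were in OSMI2. In OSMI2 against Scr, 7 of the 9 tested genes fell and none rose, where 9.01% of all genes tested were called lower. Among the 10028 better expressed genes 19.5% were called lower. The 2 that did not pass were METTL14 (-0.15, adjusted p = 0.415) and RBM15B (0.03, adjusted p = 0.885). WTAP had 107 and 90.8 CPM in OSMI2 against 152 and 147 CPM in Scr, VIRMA 63.5 and 52.9 against 91.4 and 84.2 CPM, and CBLL1 44.5 and 40.8 against 57.7 and 69.01 CPM. None of these 3 genes overlapped between the arms. With 2 libraries per group that is a weak criterion. Under DMSO, WTAP and VIRMA did not overlap between these arms either, though neither was called, while CBLL1 did overlap. Under AT7519 the log2 fold changes were -0.60 for WTAP (SE 0.08, adjusted p = 7.70e-05, edgeR), -0.59 for VIRMA (SE 0.08, 0.000136) and -0.57 for CBLL1 (SE 0.11, 0.00157). All 3 calls held in the 25 alternatives. RBM15 had 55.4 and 44.2 CPM in OSMI2 against 94.1 and 95.3 CPM in Scr, a fitted value of -0.92 (SE 0.10).

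The other 4 calls in OSMI2 against Scr were smaller, and each was lost on leaving out certain libraries at nearly the same fold. METTL3 (-0.29, SE 0.09, adjusted p = 0.0281, edgeR) lost its call without OSMI2 replicate 1 (-0.33, 0.0549), OSMI2 replicate 2 (-0.32, 0.0778) or Scr replicate 2 (-0.28, 0.0842). ZC3H13 (-0.28, SE 0.08, adjusted p = 0.0240) lost it without OSMI2 replicate 1 (-0.31, 0.0514), OSMI2 replicate 2 (-0.32, 0.0587) or Scr replicate 1 (-0.28, 0.0831). YTHDC1 (-0.30, SE 0.08, adjusted p = 0.0229) lost it without OSMI2 replicate 2 (-0.28, 0.122) or Scr replicate 2 (-0.27, 0.0869). ALKBH5 (-0.28, SE 0.08, adjusted p = 0.0173), with 79.2 and 77.3 CPM in OSMI2 against 101 and 89.5 CPM in Scr, lost it without OSMI2 replicate 2 (-0.29, 0.0759) or Scr replicate 1 (-0.24, 0.119). None of these 4 genes was called with upper-quartile or library-size scaling, where their values were -0.18 to -0.21. OSMI2 replicate 2 was also the shallowest of the 16 libraries. The median over the 9 genes was -0.29, beside 0.02 over all genes and -0.08 over the 10028 better expressed genes.

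In siOGT1 against Scr under AT7519, 3 of 9 genes were called, where 19.2% of all genes were. Of the 10028 better expressed genes 31.5% were called there, so the members lay near that share. YTHDC1 fell, with 90.6 and 107 CPM in siOGT1 against 129 and 139 CPM in Scr (log2 fold change -0.44, SE 0.08, adjusted p = 0.00102, edgeR), and this call held in all 25 alternatives. CBLL1 fell (-0.34, SE 0.11, adjusted p = 0.0331) but lost the call without Scr replicate 2 (-0.20, 0.352), siOGT1 replicate 1 (-0.28, 0.192) or siOGT1 replicate 2 (-0.41, 0.0565). ALKBH5 rose (0.27, SE 0.08, adjusted p = 0.0182) and lost the call without Scr replicate 2 (0.19, 0.204) or siOGT1 replicate 1 (0.21, 0.151). METTL14 at 0.30 (adjusted p = 0.0501) and ZC3H13 at -0.22 (adjusted p = 0.0550) lay just outside the threshold. In siOGT2, METTL3 was the 1 of 9 genes called (-0.30, SE 0.09, adjusted p = 0.0358). There 8.16% of all genes and 14.2% of the better expressed genes were called. METTL3 lost the call without either Scr or either siOGT2 library (log2 fold change of -0.35 to -0.25). The RBM15 values were -0.33 in siOGT1 and -0.12 in siOGT2.

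**Figure D4:**
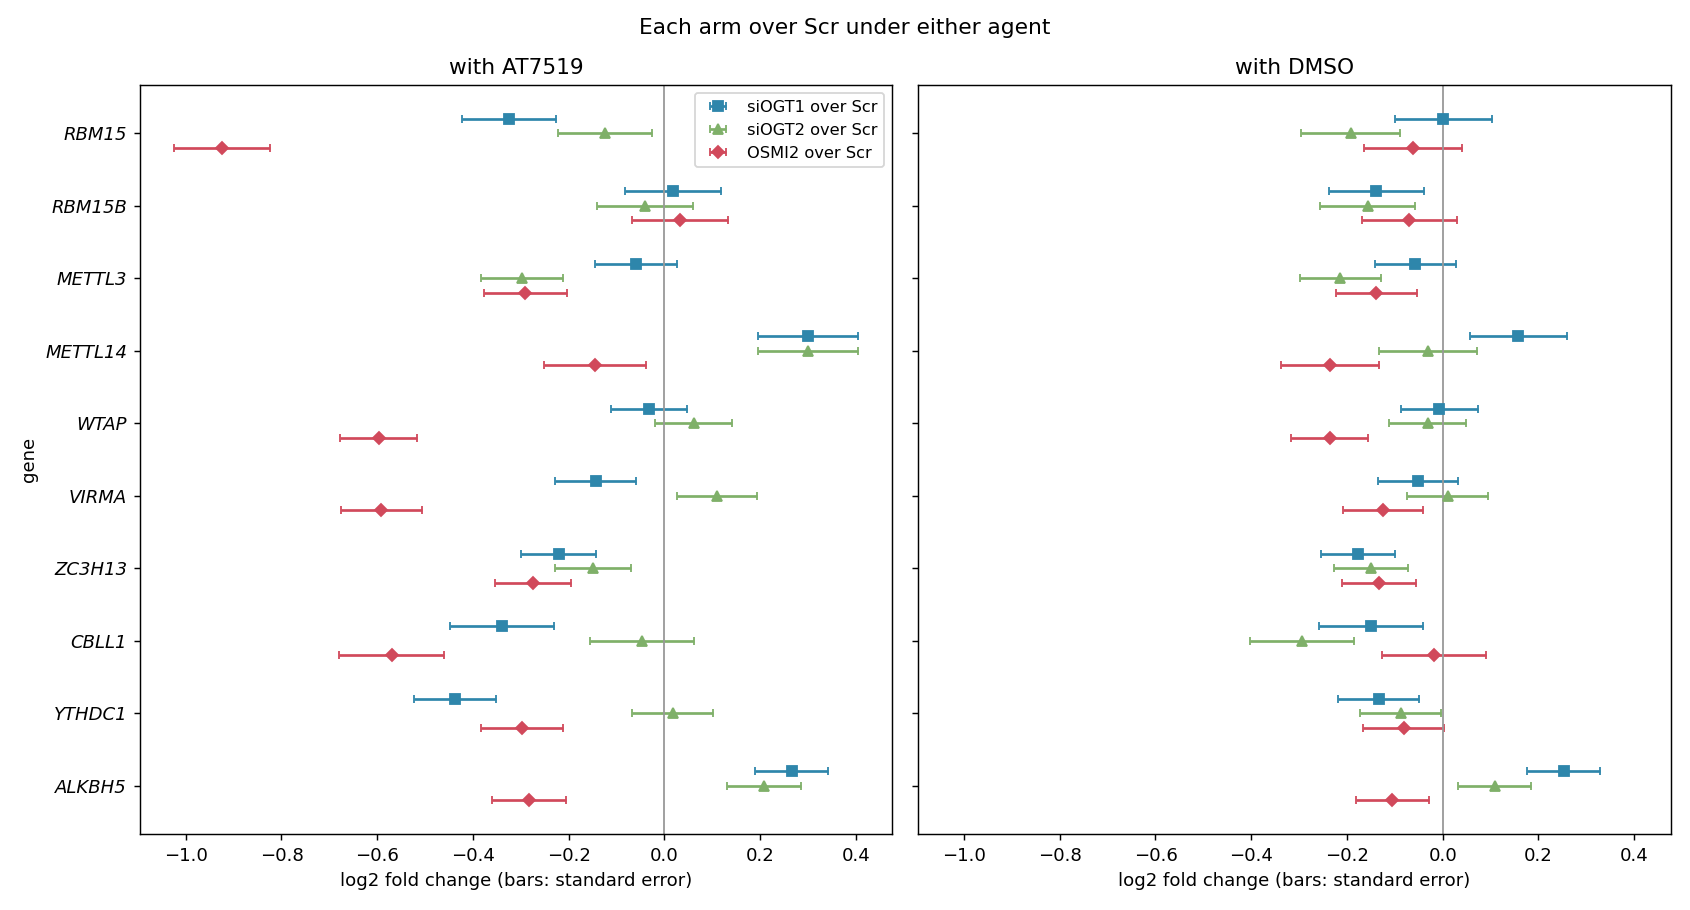
Fitted log2 fold change of siOGT1, siOGT2 and OSMI2 over Scr (horizontal axis) for each gene (rows), with AT7519 on the left and DMSO on the right; bars are 1 standard error, from 2 libraries per group. With AT7519 the OSMI2 values of RBM15, WTAP, VIRMA and CBLL1 lie at -0.57 or lower, while with DMSO every value lies between -0.29 and 0.25.

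Whether the response to AT7519 itself differed from that of Scr was tested as an interaction. None of the 9 genes passed in siOGT1, where 0.0504% of all genes did, in siOGT2, where 0% did, or in OSMI2, where 0.747% did. Over all genes edgeR called 12, 0 and 178 in that order of arms, DESeq2 called 118, 3 and 478, and 1393, 928 and 2087 had an unadjusted p below 0.05. The farthest values of the 9 were in OSMI2, at -0.47 for VIRMA (adjusted p = 0.0808), -0.55 for CBLL1 (0.124) and -0.36 for WTAP (0.209), which were called in 10, 6 and 2 of the 25 alternatives. In siOGT1 the farthest was YTHDC1 at -0.30 (adjusted p = 0.698). The RBM15 differences were -0.33 in siOGT1, 0.07 in siOGT2 and -0.86 in OSMI2, and without any 1 library the OSMI2 value was -1.10 to -0.76.

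Other genes of the m6A pathway moved in both directions with AT7519. The arms below are in the order siOGT1, siOGT2, OSMI2 and Scr. Of 5 methyltransferase genes outside the complex, 1, 2, 2 and 2 rose and 2 fell in each arm. METTL16, which methylates MAT2A RNA and the U6 small nuclear RNA, fell by 0.76, 0.62, 0.81 and 0.69 on the log2 scale (largest adjusted p = 1.11e-05, edgeR). ZCCHC4, which methylates ribosomal RNA, fell by 1.33, 1.42, 1.01 and 1.44 (largest adjusted p = 2.93e-06). TRMT112, the partner of the ribosomal RNA methyltransferase METTL5, rose by 0.64, 0.55, 0.67 and 0.68 (largest adjusted p = 3.84e-06). The eraser FTO was called higher in all 4 arms (0.21, 0.27, 0.27 and 0.21, adjusted p = 0.0438, 0.0112, 0.0102 and 0.0421), but with library size alone its values were -0.01, 0.01, 0.02 and -0.04 and its sign turned in siOGT1 and Scr. The FTO call was lost in 7, 2, 3 and 7 of 16 single-library removals.

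Of 12 other m6A readers listed, 10 passed the filter on low counts. Among them 2, 3, 3 and 3 rose and 2, 3, 3 and 4 fell. HNRNPC, which binds RNA opened by the mark, rose by 0.54, 0.66, 0.73 and 0.55 (largest adjusted p = 4.19e-05, edgeR), and HNRNPA2B1 rose by 0.54, 0.62, 0.80 and 0.50 (largest adjusted p = 2.82e-05). The cytoplasmic reader YTHDF3 fell by 0.60, 0.36, 0.97 and 0.40 (largest adjusted p = 0.00317), the Scr call being lost without Scr AT7519 replicate 2 (-0.26, 0.0611). YTHDF1 fell by 0.46, 0.27, 0.86 and 0.26 (largest adjusted p = 0.0291), and its siOGT2 and Scr calls were lost in 3 and 4 of 16 single-library removals (adjusted p of 0.0530 to 0.127 and 0.0607 to 0.228) and with upper-quartile scaling (-0.17 and -0.11). YTHDF2 rose in siOGT2 (0.40, adjusted p = 0.000405) and Scr (0.36, 0.000983), and neither call held with library size alone (0.14 and 0.11). In OSMI2 against Scr under AT7519, YTHDF1 (-0.67, adjusted p = 0.000122), YTHDF2 (-0.59, 8.19e-05) and YTHDF3 (-0.63, 0.000160) all fell, and 4 of the 10 readers fell and none rose. In that comparison 9.01% of all genes and 19.5% of the better expressed genes were called lower.

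Of 4 genes listed around the methyl donor S-adenosylmethionine (MAT2A, MAT2B, AHCY and AHCYL1), 2 rose in each arm and 1, 2, 2 and 2 fell. MAT2A, which makes S-adenosylmethionine, averaged 76.4 CPM with AT7519 against 272 with DMSO in siOGT1, 94.4 against 289.8 in siOGT2, 74.5 against 306 in OSMI2 and 159.8 against 316 in Scr. It was lower with AT7519 in all arms, and its AT7519 mean was highest in Scr. The log2 fold changes were -1.84, -1.62, -2.03 and -0.99 (SE 0.12 in each arm, largest adjusted p = 1.29e-06, edgeR). Under AT7519, MAT2A was lower than in Scr, with log2 fold changes of -1.07 in siOGT1 (adjusted p = 4.54e-06), -0.76 in siOGT2 (0.000486) and -1.10 in OSMI2 (1.28e-05). AHCY, which breaks down the spent donor S-adenosylhomocysteine, rose by 0.47, 0.47, 0.57 and 0.53 (largest adjusted p = 2.49e-05).

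Of SPEN, PHF3 and DIDO1, which share the SPOC domain of RBM15, 3, 2, 3 and 2 fell and none rose, PHF3 being the one that did not pass in siOGT2 and Scr. DIDO1 averaged 26.2 CPM with AT7519 against 95.2 with DMSO in siOGT1, 29.6 against 97.1 in siOGT2, 31.7 against 106 in OSMI2 and 31.0 against 104 in Scr, log2 fold changes of -1.86, -1.72, -1.74 and -1.75 (SE 0.12, largest adjusted p = 1.29e-09, edgeR). SPEN fell by 0.79, 0.60, 1.10 and 0.73 (largest adjusted p = 0.000201). Of 4 partners of YTHDC1 in splicing and export, 1, 2, 1 and 2 rose and none fell, and the splicing factor SRSF3 rose by 0.60, 0.66, 0.60 and 0.61 (largest adjusted p = 6.96e-05). Of 19 enzymes that modify RNA in other ways, 6, 8, 7 and 8 rose and 4, 5, 5 and 6 fell. Among the 10028 better expressed genes of the whole table, 31.6%, 35.1%, 35.0% and 33.5% were called higher in these arms, and the lower shares given earlier were 27.9% to 32.2%, so the counts of the larger lists lay near those of other genes.

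The genes whose 8 group means were most like those of RBM15, after each gene's own mean was subtracted on the log2 CPM scale, were sought among 9896 genes. The measure was the root mean square difference. The closest 5 were SNHG15 (0.233), RABGGTB (0.253), VCPKMT (0.276), CCNL1 (0.287) and TMPPE (0.290). SNHG15, a long non-coding RNA that hosts a small nucleolar RNA, averaged 121 CPM with AT7519 against 41.5 with DMSO in siOGT1, 155 against 47.4 in siOGT2, 106 against 41.3 in OSMI2 and 188 against 53.6 in Scr. CCNL1, which encodes a cyclin linked to splicing, averaged 269 against 76.6, 412 against 85.1, 355 against 96.1 and 421 against 92.0 CPM in the same order. SNHG15 had its lowest AT7519 mean in OSMI2, the arm in which RBM15 was lowest. CCNL1, RABGGTB, VCPKMT and TMPPE had their lowest AT7519 mean in siOGT1 instead. Except for CCNL1, the siOGT1 and OSMI2 means lay close beside their standard deviations (SD). With AT7519, RABGGTB averaged 288 CPM (SD 29.7) in siOGT1 and 300 (SD 5.22) in OSMI2, and VCPKMT 28.2 (SD 4.16) and 29.2 (SD 1.76). TMPPE averaged 18.4 (SD 3.67) and 21.4 (SD 4.85), and SNHG15 121 (SD 12.0) and 106 (SD 10.6). Because the profile of RBM15 was the target of the search, these values are a description.

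**Figure D5:**
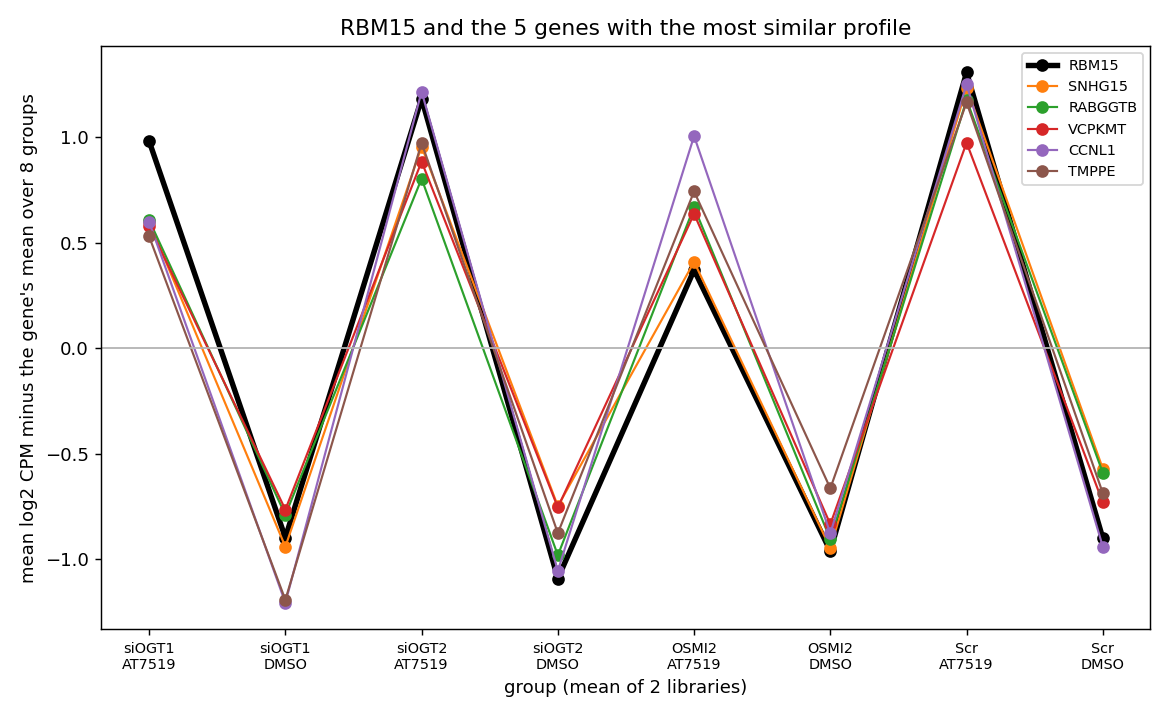
Mean log2 CPM of each group minus the gene's mean over the 8 groups (vertical axis) for RBM15 and the 5 genes closest to it, by group (means of 2 libraries). All 6 genes lie above 0 in the 4 AT7519 groups and below 0 in the 4 DMSO groups, and RBM15 and SNHG15 are the lowest of the 6 in OSMI2 with AT7519.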

How the data were processed

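Per the labels' protocols, total RNA was made into strand-specific libraries. Per the submitters' processing notes, tools included the aligner STAR, the counter HTSeq and DESeq2, on build hg19 (GRCh37); no versions are stated. The values used are the counts per gene and library that the authors deposited, 1 whole number each; which strand was counted is not stated. Symbols, exons, lengths and neighbours came from GENCODE (GRCh38) and promoters from RefSeq (GRCh38.p14, 9 of the 10 genes matched), so no coordinate was carried between builds. Names matched 55528 of 60252 gene identifiers. In R 4.3.3, edgeR 4.0.16 was used: filterByExpr on the 8 groups (23830 genes kept), trimmed-mean (TMM) scaling, 1 mean per group over all 16 libraries (8 residual degrees of freedom) and the robust quasi-likelihood test, two-sided, with adjustment over all genes. CPM used TMM-effective library sizes. TMM factors were 0.864 to 0.952 with AT7519 and 1.05 to 1.13 with DMSO. The members, gene lists and tests were chosen with earlier results of these data known. Genes outside the 10 were named from lists of the pathway by function; the genes most like RBM15 were the 5 with the smallest difference in profile. The fit was also run on simulated counts in which a small share of genes changed, evenly up and down, in the Scr AT7519 group. Many more genes were called with AT7519 in the data, so that run does not test the scaling there. Alternatives were other scalings, DESeq2 1.42.0, other filters, the compared groups only, blocks for the replicate number, and leaving out each library.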

Additional observations from a re-analysis of the deposited data

Results flagged for a closer look

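Among the pathway genes named above, 3 had a response to AT7519 that differed between OSMI2 and Scr. The test was the interaction in edgeR's quasi-likelihood fit with Benjamini-Hochberg adjustment over all genes, of which 0.747% were called. These 3 are given here because they passed. MAT2A fell by 1.05 more on the log2 scale in OSMI2 than in Scr (-1.05, SE 0.16, adjusted p = 0.00497), and the call held in all 16 single-library removals. By the fold changes given earlier, MAT2A also fell by more in siOGT1 and siOGT2 than in Scr. YTHDF1 fell by more in OSMI2 (-0.60, SE 0.13, adjusted p = 0.0354), a call lost in 10 of 16 single-library removals (adjusted p of 0.0549 to 0.182). YTHDF3 fell by more in OSMI2 (-0.57, SE 0.13, adjusted p = 0.0487), also lost in 10 of 16 removals (adjusted p of 0.0698 to 0.232).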

How the results depend on the processing

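For the 9 tested members over 13 comparisons and 25 alternatives, 2770 of the recomputed values kept their side of the threshold, 84 lost a call, 69 gained one and 2 turned sign with a call in either fit. Another 94 values, called in neither fit and at most 0.18 from 0, also turned sign and are counted as kept. The called signs that turned, those of other named genes included, did so with library size alone, in AT7519 against DMSO: VIRMA (-0.22) and ALKBH5 (-0.00303) in siOGT2, FTO in siOGT1 (-0.0105) and Scr (-0.0356), and SRSF7 in siOGT2 (-0.0299); that setting moved the median of all genes to between -0.30 and -0.22, beside -0.05 to 0.02 with TMM. The share of AT7519 calls that were higher was 46.9%, 49.2%, 50.1% and 47.0% in siOGT1, siOGT2, OSMI2 and Scr with TMM, 59.1%, 57.8%, 62.1% and 58.7% with upper-quartile scaling and 25.5%, 26.1%, 29.2% and 26.9% with library size. For siOGT1, siOGT2 and OSMI2 against Scr it was 52.1%, 57.4% and 36.5% under AT7519 (upper quartile 54.3%, 52.7% and 58.3%; library size 66.6%, 66.6% and 58.7%) and 47.0%, 44.6% and 16.5% under DMSO (55.3%, 55.1% and 41.5%; 60.2%, 62.5% and 53.6%).

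Counts of called genes over the whole table also moved, and the cause was not tested unless the setting tests fewer genes. AT7519 against DMSO called 9880, 10728, 11236 and 11072 genes in siOGT1, siOGT2, OSMI2 and Scr, and 6207, 6391, 6995 and 6646 where the test took in the better expressed genes alone (mean log2 CPM from 3 up). Under DMSO, siOGT1 against Scr called 2479 genes (4002 with the compared groups only), siOGT2 1025 (1803; DESeq2 1586) and OSMI2 710 (1683; DESeq2 1420; upper quartile 378; library size 390). Under AT7519, siOGT1 called 4566 (compared groups only 2585), siOGT2 1945 (309) and OSMI2 3382. The interactions called 12 in siOGT1 (library size 20, DESeq2 118, no filter 100), 0 in siOGT2 (3 with DESeq2, 8 with no filter) and 178 in OSMI2 (DESeq2 478, no filter 551, compared groups only 287). Leaving out 1 library gave 7497 to 10305, 8521 to 10966, 8997 to 11472 and 8902 to 11451 calls for AT7519 in siOGT1, siOGT2, OSMI2 and Scr. It gave 2884 to 5055, 867 to 2083 and 1585 to 4207 for siOGT1, siOGT2 and OSMI2 against Scr under AT7519, 790 to 2868, 184 to 1247 and 9 to 751 under DMSO, and 3 to 22, 0 to 2 and 28 to 371 for the interactions. All member values rest on 714 counts or more per library, and 2 libraries per group limit the precision.

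Replicate numbers are shared between groups but are not said to mark a batch, and with 2 per group they were not taken as pairing. The difference between replicates 1 and 2 correlated across genes, which are not independent, at 0.60 to 0.73 between siRNA arms of 1 agent, 0.05 to 0.18 with OSMI2 and -0.13 to 0.43 between agents. For the 9 members a replicate block gained 4 calls and lost 0: METTL14 (0.30, adjusted p = 0.0255) and ZC3H13 (-0.22, 0.0381) in siOGT1 and METTL14 (0.30, 0.0422) in siOGT2 against Scr under AT7519, and the VIRMA interaction in OSMI2 (-0.47, 0.0378). Within agent the block gained 11 and lost 1, the gains including these 4 and ALKBH5 in siOGT2 under AT7519 (0.21, 0.0236). Also gained were CBLL1 in siOGT2 (-0.29, 0.0245) and WTAP in OSMI2 (-0.24, 0.0234) under DMSO, and the WTAP (-0.36, 0.0300) and CBLL1 (-0.54, 0.00772) interactions in OSMI2. Over all genes a replicate block gave 1605 calls in siOGT2 and 1224 in OSMI2 against Scr under DMSO, and 34 and 376 for the siOGT1 and OSMI2 interactions. A replicate block within agent gave 4387, 2574 and 2391 under DMSO for the 3 arms over Scr (siOGT1, siOGT2, OSMI2), 3931 and 5555 for siOGT2 and OSMI2 under AT7519, and 218, 6 and 784 for the interactions.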
